A study of Mus musculus with 13 samples.

Results

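Interscapular brown adipose tissue is dissected from between the shoulder blades, where it lies against skeletal muscle. How much muscle transcript each dissection carried, and which genes moved with it, was described here by comparing 5 muscle-rich with 5 muscle-poor libraries out of 13 in all. The sets were selected on measured values: the mean of log2(CPM + 1) of 5 genes of fast-twitch fibres, Acta1, Myh4, Ckm, Mylpf and Tnnt3, was taken in every library (CPM, a gene's counts scaled to a common library total by the usual counts-per-million rule), the 5 highest libraries were set against the 5 lowest, and the middle 3 were left out. The sets are therefore not groups of the study, and the level of these 5 genes in them is a description of the sort and not a finding.

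All mice carried loxP-flanked alleles of Axl, a receptor tyrosine kinase, ate a high-fat diet (HFD) freely, lived at room temperature and were given tamoxifen each 3 weeks. The 8 mice labelled iFAXLKO also carried a tamoxifen-inducible Cre, which the study's methods place under the Adipoq promoter of fat cells, and the 5 labelled WT had no Cre. The muscle-rich set held 3 iFAXLKO and 2 WT libraries, and the muscle-poor set held 4 iFAXLKO and 1 WT, so genotype was a term in the comparison of the sets. The labels give neither age at harvest nor how much tissue around the depot was trimmed. The labels call the libraries poly-A RNA, whereas the study's methods speak of rRNA depletion, and which was done is not settled here. The deposited values were whole counts per gene, with 22437277 to 32595083 counts a library. From here on CPM denotes the same measure after scaling by TMM factors (trimmed mean of M values, which correct for differences in composition between libraries), except for the values that sorted the libraries. The brown fat gene Ucp1 and the adipocyte gene Adipoq were present in every library: Ucp1 stood between 4039 and 7896 CPM and Adipoq between 622 and 1303 CPM. In a bulk library fewer cells of a type and less RNA per cell cannot be told apart.

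Skeletal muscle fibres are built from sarcomeres, in which myosin heavy chains pull on actin filaments and the troponin complex makes the pull depend on calcium. Fast and slow fibres use different members of the same families, while calcium is released by the ryanodine receptor Ryr1 and taken back by the pump Atp2a1. Brown adipocytes arise from precursors related to those of muscle and share with it a mitochondrial, fat-burning metabolism. They make heat through Ucp1, an uncoupling protein of the mitochondrial inner membrane, and through creatine and calcium cycles that use relatives of muscle genes.

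The score of the 5 genes fell from 9.02 in iFAXLKO replicate 5 to 0.514 in iFAXLKO replicate 8. The muscle-rich set, in falling order, was iFAXLKO replicate 5, iFAXLKO replicate 1, WT replicate 1, WT replicate 2 and iFAXLKO replicate 2, with a mean score of 8.26 ± 0.65 (SD, n = 5). The muscle-poor set was iFAXLKO replicate 7, iFAXLKO replicate 3, iFAXLKO replicate 4, WT replicate 5 and iFAXLKO replicate 8, with a mean score of 3.32 ± 2.23 (SD, n = 5). There was no gap at either edge: the last muscle-rich library scored 7.24 and the first library left out 7.22, and the last library left out scored 6.37 and the first muscle-poor library 6.20. The muscle-poor set was thus the more spread of the sets.

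Skeletal actin, Acta1, measured on total counts, ran from 1253 CPM in iFAXLKO replicate 5 to 0.444 CPM in iFAXLKO replicate 8. That is a ratio of 2825, with an exact 95% counting interval of 1579 to 5659, from 34242 counts against 11. Within the muscle-poor set alone Acta1 varied 386-fold and within the muscle-rich set 3.65-fold. Myh4, the myosin heavy chain of the fastest fibres, had 25545 counts in the highest library and 11 in the lowest, and Tnnt3, fast troponin T, had 11455 and 5. Ckm, muscle creatine kinase, ran from 523 to 0.282 CPM and Mylpf, the fast regulatory light chain, from 145 to 0.847 CPM, the narrowest range of the 5 at 171-fold. The counting interval covers sampling of reads and nothing else.

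**Figure D1:**
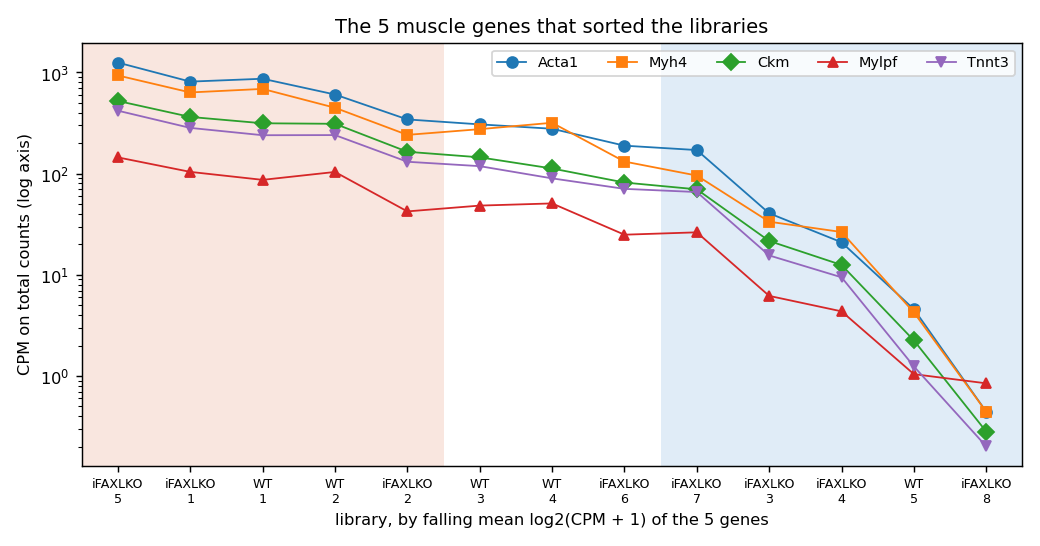
CPM on total counts of the 5 genes that sorted the libraries, on a log axis, with libraries in falling order of score; the red band marks the 5 muscle-rich and the blue band the 5 muscle-poor libraries. Acta1 runs from 1253 CPM in iFAXLKO replicate 5 to 0.444 CPM in iFAXLKO replicate 8, and the curves fall most steeply inside the blue band. That of Mylpf flattens at its end, from 1.04 CPM in WT replicate 5 to 0.847 CPM in iFAXLKO replicate 8.

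Promoters are shown for Acta1 and Myh4 because both hold a CArG box, the element bound by serum response factor, and a TATAAA element. They are RefSeq sequences on GRCm38.p6, 5′ to 3′ on the gene's strand, from 250 bases before to 50 bases after the RefSeq start. Capitals mark the CArG box, TATAAA and the E-box CANNTG (N, any base), the element bound by MyoD and its relatives, each searched on both strands.
Acta1 promoter, chr8:123894726-123895025, minus strand: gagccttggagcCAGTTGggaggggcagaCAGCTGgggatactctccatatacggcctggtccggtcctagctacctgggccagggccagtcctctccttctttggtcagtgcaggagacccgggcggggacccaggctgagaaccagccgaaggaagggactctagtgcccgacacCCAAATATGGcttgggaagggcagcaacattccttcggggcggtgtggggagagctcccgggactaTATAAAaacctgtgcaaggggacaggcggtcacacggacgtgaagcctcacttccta
Myh4 promoter, chr11:67237562-67237861, plus strand: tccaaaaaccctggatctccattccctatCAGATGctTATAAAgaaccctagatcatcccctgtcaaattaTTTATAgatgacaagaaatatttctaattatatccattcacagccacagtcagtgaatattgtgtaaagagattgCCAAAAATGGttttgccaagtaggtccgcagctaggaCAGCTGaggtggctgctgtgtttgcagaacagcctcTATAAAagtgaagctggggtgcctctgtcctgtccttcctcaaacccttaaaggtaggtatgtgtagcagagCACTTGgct
Acta1 held 1 CArG box, 1 TATAAA and 2 E-boxes, and Myh4 held 1, 3 and 3. A CArG box was in 10 of the 130 muscle-list genes with a promoter entry (7.69%), against 1.55% of the 9911 tested genes with one, and an E-box was in 82.3% against 67.2%. These shares are descriptions of letters in a window of fixed length, and no entry was found for Tnnt3.

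The other fast sarcomere genes followed nearly the same order. Ranking the libraries by them kept all 5 muscle-rich libraries and 4 of the 5 muscle-poor ones. All 28 of a list that left out the 5 sorting genes were measured, all 28 were higher in the muscle-rich set, and their median log2 difference was 3.78, beside a median of 0.00 over all 13225 genes tested. Of the 28, 25 did not overlap between the sets, beside 1.86% of all genes higher without overlap. Ttn, the spring protein titin, had 435, 252, 425, 97.7 and 102 CPM in the muscle-rich libraries and 64.5, 11.5, 7.19, 1.56 and 0.120 CPM in the muscle-poor ones. Every muscle-rich library was above every muscle-poor one, and the lowest kept 0.0456% of the muscle-rich mean. Actn3, the alpha-actinin of fast fibres, fell from 121 CPM in the highest library to 0.120 CPM in the lowest. Together with the 5 sorting genes they took between 0.678% and 0.0195% of all counts of a library.

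Not every sarcomere gene fell to nothing. Myl1, an essential myosin light chain of fast fibres, had 183, 142, 121, 150 and 92.4 CPM in the muscle-rich libraries and 59.1, 48.8, 46.1, 46.0 and 54.0 CPM in the muscle-poor ones. The sets did not overlap, yet the library with least muscle kept 39.2% of the muscle-rich mean. Tpm1, alpha-tropomyosin, which is also made outside muscle, behaved alike, with 117 to 247 CPM against 55.6 to 79.8 CPM. Pdlim5, a scaffold of the Z-disc, kept 73.8% and Tpm3, the slow tropomyosin that most cells make, 64.6%. Over the 141 tested genes of 8 muscle lists, 59 were left at under 1% of the muscle-rich mean in iFAXLKO replicate 8, 19 at 1 to 10%, 22 at 10 to 50% and 41 at 50% or more.

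**Figure D2:**
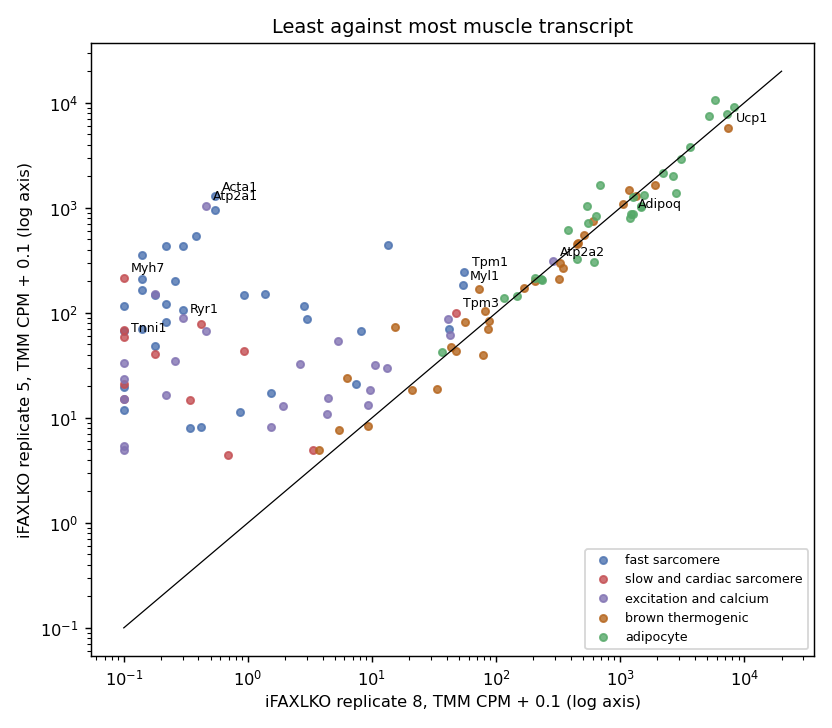
TMM-scaled CPM + 0.1 of each gene in the library with least muscle transcript (iFAXLKO replicate 8, horizontal) against the library with most (iFAXLKO replicate 5, vertical), both on log axes, with the line of equal values; colours give the gene list. Brown fat and adipocyte genes such as Ucp1 (7459 and 5770 CPM) gather about the line. Some stand off it, such as Acly (690 and 1658 CPM) and Irf4 (385 and 1945 counts). Acta1 and Atp2a1 stand far above the line at the left, and Myl1, Tpm1 and Tpm3 lie much nearer to it.

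The test across all genes has to be read with that spread in mind. A quasi-likelihood fit of the 10 libraries with genotype and set as terms (edgeR, Benjamini-Hochberg adjusted p under 0.05) called 136 of 13225 genes higher in the muscle-rich set (1.03%) and 1 lower (0.00756%). None of the 5 sorting genes was among the 136, although their log2 differences ran from 3.99 to 4.65 and their ranges did not overlap, since their spread within the muscle-poor set was so wide. Of 150 genes with a log2 difference of at least 2, 61 were not called, and no gene was lower by as much. Without regard to spread, 246 genes were higher with no overlap of the sets (1.86%) and 40 lower (0.302%). A slope on the score over all 13 libraries called 210 higher (1.59%) and 1 lower (0.00756%), 125 of the higher ones in common with the comparison of sets. Because muscle transcript sorted the libraries, calls of muscle genes restate the sort, and for the muscle lists counts and values are given with no p.

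**Figure D3:**
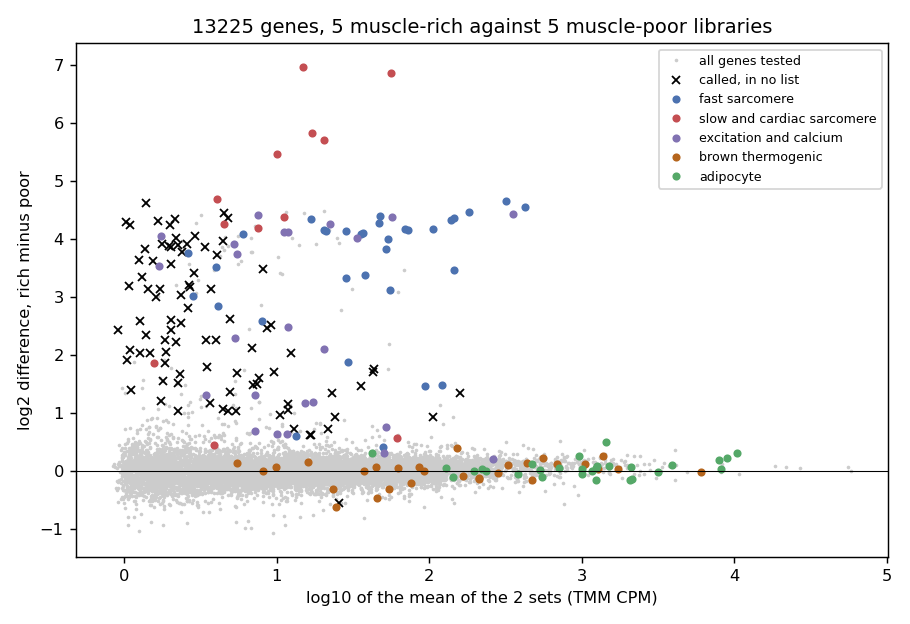
Log2 difference between the muscle-rich and muscle-poor sets of 5 libraries each (vertical) against log10 of the mean of both sets in TMM-scaled CPM (horizontal) for the 13225 genes tested, with gene lists in colour and crosses for called genes in no list. Muscle genes rise to between 3 and 7, brown fat and adipocyte genes lie along 0 over their whole range of levels, and the lone cross below 0 is Heyl at -0.56.

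Slow-fibre genes such as Myh7 and Tnni1 were low in every muscle-poor library. Of 17 genes of slow and cardiac sarcomeres 12 passed the filter, 2 of them (Tnni1 and Myh7b) only through the muscle-rich set, where they had to be higher. The median log2 difference of the 12 was 4.53, against 3.78 for the 28 fast genes, but over all listed genes the mean log2(CPM + 1) differed by 2.21 for the slow list and by 3.16 for the fast list, the opposite order. Myh7, the slow myosin heavy chain, had 216, 60.0, 149, 73.4 and 62.4 CPM in the muscle-rich libraries, 19.1, 6.24 and 11.1 CPM in the 3 left out and 3.92, 0.648, 0.639, 0 and 0 CPM in the muscle-poor ones. Tnni1, slow troponin I, had 58.2, 12.8, 31.0, 27.3 and 17.7 CPM in the muscle-rich libraries and at most 0.791 CPM in the muscle-poor ones. In iFAXLKO replicate 7, the highest of the muscle-poor set, fast genes were lower too. There Myh4 on total counts was 95.8 CPM, against 242 to 935 CPM in the muscle-rich libraries. After TMM scaling this library had 91.6 CPM of Myh4 and 68.5 CPM of Myh2 beside 3.92 CPM of Myh7. Its Myh2 share of the adult myosins was the highest of any library. Myl3 (slow light chain), Myl2, Tnnt1 and Tnnc1 were likewise high in the muscle-rich set and low in iFAXLKO replicate 7. They had 40.7, 67.9, 77.9 and 43.3 CPM in the highest library and 1.17, 2.60, 2.48 and 1.54 CPM in iFAXLKO replicate 7. In the other muscle-poor libraries Tnnc1 levelled off at 25, 33, 18 and 21 counts, where Myh7 had 15, 21, 0 and 0.

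The promoter of Myl3 is shown as the slow gene among these with a CArG box.
Myl3 promoter, chr9:110763428-110763727, plus strand: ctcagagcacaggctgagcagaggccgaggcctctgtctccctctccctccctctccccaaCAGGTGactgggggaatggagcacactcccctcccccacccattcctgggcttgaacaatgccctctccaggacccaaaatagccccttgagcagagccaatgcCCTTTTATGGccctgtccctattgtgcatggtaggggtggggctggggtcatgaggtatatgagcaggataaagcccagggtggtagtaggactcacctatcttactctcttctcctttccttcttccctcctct
It held 1 CArG box, 1 E-box and no TATAAA.

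Counts per exon length put the fibre types on a common scale. Of the 4 adult myosin heavy chains together, Myh7 made up 9.61%, 4.51%, 8.69%, 7.77% and 10.8% in the muscle-rich libraries. It made up 3.54%, 1.11% and 3.17% in the 3 left out and 1.33%, 0.945%, 1.38%, 0% and 0% in the muscle-poor ones, so that the sets did not overlap. The last of these rest on few counts: Myh7 had 0 of 126 myosin counts in WT replicate 5, which allows up to 2.89% of counts (exact 95% interval), and 0 of 14 in iFAXLKO replicate 8, which allows up to 23.2%. Myh2, of fast oxidative fibres, took 28.0% in iFAXLKO replicate 7 and between 2.52% and 14.1% in the other libraries. Myh4 was the largest share in every library, from 44.5% to 85.3%. Since Myh4 is among the genes of the sort, these shares are given with no test, and the muscle or muscles that lay beside each dissection are not known from the labels.

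**Figure D4:**
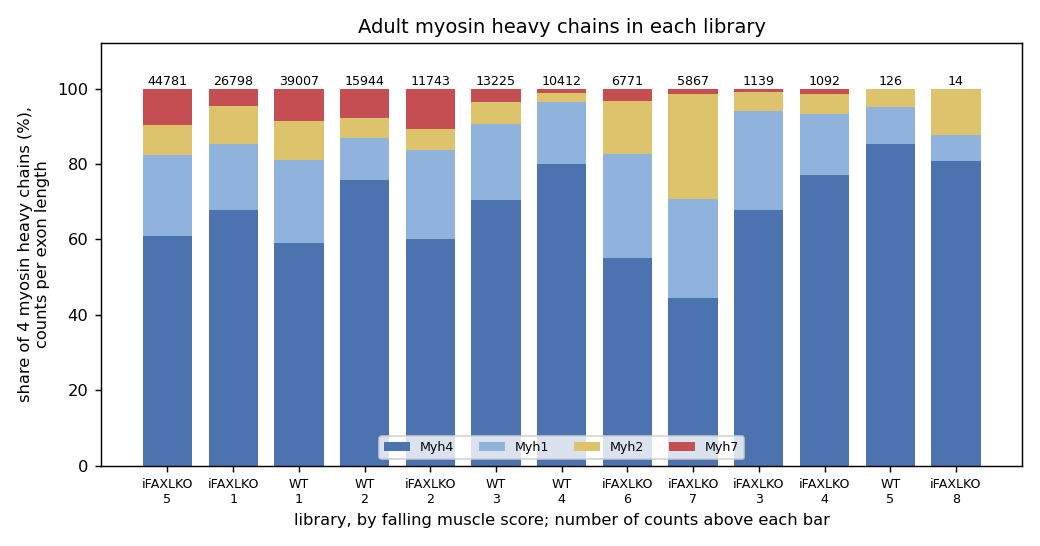
Share of each adult myosin heavy chain among the 4, from counts per exon length, in each library in falling order of score, with the number of myosin counts above the bar. The Myh7 share stands at 4.51 to 10.8% in the 5 muscle-rich libraries on the left and at 1.38% or less in the 5 muscle-poor libraries on the right, where the last bar rests on 14 counts.

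Genes that couple excitation to contraction held both genes near absent without muscle and genes with a level of their own. Of 29 genes 24 were tested, 1 of them (Clcn1) only through its level in the muscle-rich set. All 24 were higher in the muscle-rich set, 19 without overlap (1.86% of all genes were higher without overlap), with a median log2 difference of 2.38. Atp2a1, the calcium pump of fast muscle, had 1043, 732, 786, 488 and 271 CPM in the muscle-rich libraries and 137, 39.9, 25.8, 4.39 and 0.359 CPM in the muscle-poor ones. Its relative Atp2a2, the pump of slow muscle, heart and many other cells, had 230 to 367 CPM against 186 to 319 CPM. The sets overlapped for Atp2a2, and its log2 difference of 0.21 had a 95% interval of -0.15 to 0.56. Ryr1, the calcium release channel of skeletal muscle, kept 0.315% of the muscle-rich mean in the lowest library, and Ryr2 kept 83.9%. Sln, sarcolipin, an uncoupler of the pump that is known for heat production in muscle, was under the filter, at 0.763 to 2.66 CPM in the muscle-rich libraries and at 0 in 4 of 5 muscle-poor ones, where 3 counts would be 0.0968 to 0.134 CPM. Srl, sarcalumenin, had a level in muscle-poor tissue, with 42.6 to 86.8 CPM against 36.2 to 41.2 CPM.

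Creatine genes parted in the same way. Ckmt2, the creatine kinase of muscle mitochondria, had 57.7, 34.4, 35.1, 26.8 and 14.6 CPM in the muscle-rich libraries and 10.9, 1.56, 0.822, 0.169 and 0 CPM in the muscle-poor ones. The library without a Ckmt2 count, iFAXLKO replicate 8, had 0.279 CPM of Ckm and 7459 CPM of Ucp1. Ckb, the brain-type creatine kinase that brown fat also makes, had 65.5 to 118 CPM against 72.8 to 122 CPM, with a log2 difference of -0.15 (95% interval -0.55 to 0.24). Slc6a8, the creatine transporter, differed by 0.15 (95% interval -0.09 to 0.40). Of the 7 tested genes of creatine metabolism Ckm, whose order the sort fixed, and Ckmt2 were higher without overlap. Of the 8 tested genes of calcium handling Atp2a1 and Ryr1 were, beside 1.86% of all genes higher and 0.302% lower without overlap.

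Metabolic genes named for muscle differed widely in how much of their level was present without muscle. The 30 genes of this list had a median log2 difference of 0.46, and 28 were higher in the muscle-rich set, 13 without overlap (1.86% of all genes). Of the 30, 9 had a 95% interval that stayed within 1.5-fold either way, a smaller share than the 76.8% of all genes. Eno3, muscle enolase, had 50.6 to 161 CPM against 7.05 to 30.8 CPM, and Pygm, muscle glycogen phosphorylase, 56.9 to 189 CPM against 4.63 to 31.7 CPM. Pfkm, muscle phosphofructokinase, had 117 to 183 CPM against 73.5 to 98.5 CPM, so that most of its level was present without muscle. Mb, myoglobin, overlapped, with 72.1 to 250 CPM against 52.9 to 89.2 CPM. Gys1, glycogen synthase, had 262 to 318 CPM against 239 to 309 CPM, and Slc2a4, the insulin-responsive glucose transporter, 410 to 535 CPM against 347 to 476 CPM. Both sets overlapped for these, with log2 differences of 0.04 (95% interval -0.17 to 0.25) and 0.17 (-0.04 to 0.38).

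Of 33 genes of the muscle membrane and cytoskeleton 32 were tested, 1 of them (Ppp1r27) only through its level in the muscle-rich set, and 27 did not overlap, against 1.86% of all genes higher and 0.302% lower, with a median log2 difference of 3.40. Des, desmin, of the intermediate filaments of all muscle, had 134 to 225 CPM against 67.0 to 125 CPM, and Hspb6, a small heat shock protein, 53.2 to 143 CPM against 14.0 to 32.2 CPM. Dysf, dysferlin, a membrane repair protein, had 34.7 to 43.8 CPM against 38.3 to 51.7 CPM, with overlapping sets. Of 24 genes of muscle precursors and the neuromuscular junction only 10 passed the filter, 3 of them through the muscle-rich set alone. Myf6, the myogenic factor of mature fibres, had 1.36 to 4.42 CPM in the muscle-rich libraries and 0 to 0.828 CPM in the muscle-poor ones, and Myod1 0.404 to 0.763 CPM against 0 to 0.264 CPM. Pax7, of satellite cells, and Myf5 stayed at or under 0.043 and 0.073 CPM in every library, below the level of 3 counts. Of 6 genes of embryonic and regenerating muscle the lone gene tested was Myl4, at 2.47 to 6.26 CPM. Its sets overlapped, with a log2 difference of 0.44. Myh3, an embryonic myosin heavy chain, was under the filter. It had 39, 12, 25, 10 and 13 counts in the muscle-rich libraries and 7, 2, 0, 0 and 0 in the muscle-poor ones. Over all 6 listed genes the mean log2(CPM + 1) differed by 0.19.

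Brown thermogenic genes showed no such order. None of the 29 tested was called in either direction, against 1.03% and 0.00756% of all genes, their median log2 difference was 0.02, and 15 of the 29 lay above 0 (1 gene, Prdm16, had an unadjusted edgeR p under 0.05). Ucp1 had 5770, 6373, 5900, 7896 and 4332 CPM in the muscle-rich libraries and 4039, 6259, 5563, 6328 and 7459 CPM in the muscle-poor ones. The sets overlapped almost wholly, and the log2 difference was -0.03 with a 95% interval of -0.42 to 0.36. Cidea, a lipid droplet protein, Cpt1b, which brings fatty acids into mitochondria, and Ppargc1a, a coactivator of mitochondrial genes, differed by 0.02, 0.03 and -0.01. For 19 of the 29 the interval stayed within 1.5-fold, a smaller share than the 76.8% of all genes. The interval was wide for Dio2, the deiodinase that activates thyroid hormone (0.04, -0.94 to 1.02), and for Irf4 (-0.48, -1.85 to 0.90), where larger differences in either direction lie within it.

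The Ucp1 promoter is shown beside those of the muscle genes, in the same window.
Ucp1 promoter, chr8:83290098-83290397, plus strand: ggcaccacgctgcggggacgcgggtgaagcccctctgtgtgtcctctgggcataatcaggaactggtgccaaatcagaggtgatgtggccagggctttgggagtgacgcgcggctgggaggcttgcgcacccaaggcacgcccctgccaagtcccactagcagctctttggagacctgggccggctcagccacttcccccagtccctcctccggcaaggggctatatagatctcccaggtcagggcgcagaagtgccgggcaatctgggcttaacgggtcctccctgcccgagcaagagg
None of the 3 elements marked in the muscle promoters was found in these letters. An E-box was in 18 of the 22 brown thermogenic genes with an entry, a CArG box in 1 and TATAAA in 6 (27.3%, against 23.8% of the muscle-list genes and 8.94% of the tested genes).

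**Figure D5:**
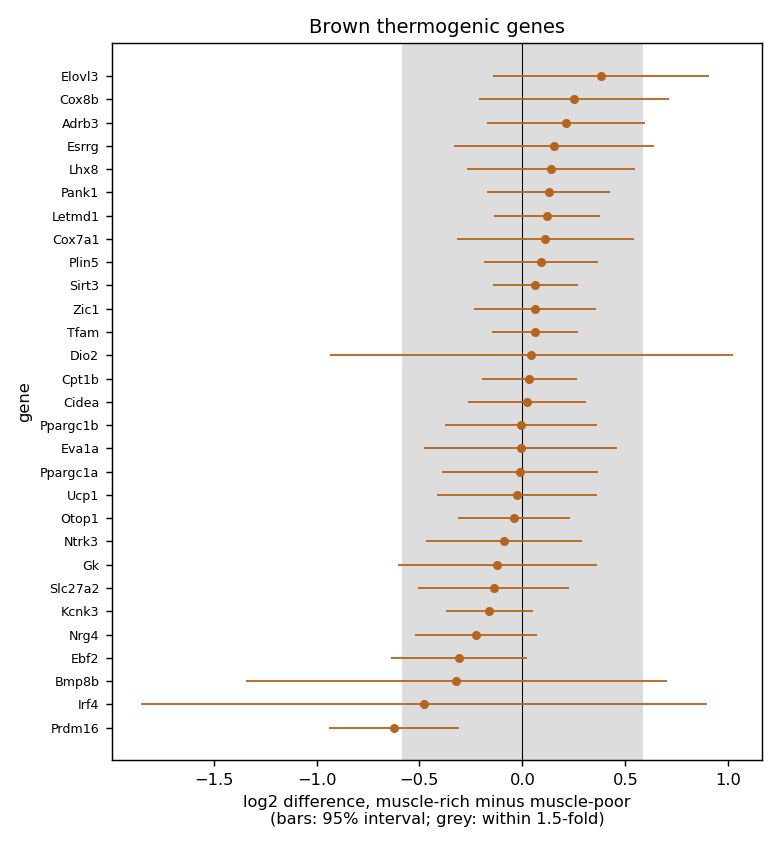
Log2 difference between muscle-rich and muscle-poor libraries of the 29 tested brown thermogenic genes, with 95% intervals; the grey band marks differences within 1.5-fold. Points gather around 0 from Prdm16 at -0.62 to Elovl3 at 0.38, with wide intervals for Irf4, Bmp8b and Dio2.

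Prdm16, a regulator of brown fat identity, lay lowest among them. It had 18.9, 22.6, 20.3, 16.3 and 17.6 CPM in the muscle-rich libraries, 23.2, 25.9 and 35.2 CPM in the 3 left out, and 32.9, 20.6, 29.3, 31.5 and 33.5 CPM in the muscle-poor ones. A single muscle-poor library, iFAXLKO replicate 3, overlapped the muscle-rich range. The log2 difference was -0.62 (95% interval -0.94 to -0.31) and missed the limit (edgeR quasi-likelihood, Benjamini-Hochberg adjusted p = 0.0871). It passed with DESeq2, with no filter on low counts, without the genotype term and without iFAXLKO replicate 3 (edgeR adjusted p = 0.0237 for the last), and leaving out other libraries in turn gave edgeR adjusted p up to 0.460.

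Genes that brown fat and muscle are both known to use differed in how level they were. Of 20 such genes 12 had intervals within 1.5-fold, a smaller share than the 76.8% of all genes. Among the 20, 1 was called higher (1.03% of all genes were) and 3 did not overlap (1.86% of all genes were higher and 0.302% lower without overlap). The 3 were Ckmt2, described above, at a log2 difference of 3.90, Slc25a4 and Tbx15. Cox7a1 and Cox8b, the respiratory chain subunits shared by heart, muscle and brown fat, had 491 to 1106 CPM against 576 to 777 CPM, and 1047 to 2325 CPM against 969 to 1601 CPM. Fabp3, the fatty acid binding protein of heart, had 395 to 811 CPM against 449 to 516 CPM. The sets overlapped for each of these. Ucp3, the uncoupling protein of muscle and brown fat, had 83.6 to 149 CPM against 132 to 204 CPM, a log2 difference of -0.26 (95% interval -0.65 to 0.13). Slc25a4, the adenine nucleotide carrier of muscle and heart, had 409 to 590 CPM against 324 to 363 CPM, without overlap, and a log2 difference of 0.44 that was not called (edgeR quasi-likelihood, Benjamini-Hochberg adjusted p = 0.243).

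The called gene of this list was Tbx15, a T-box factor made in brown fat and in fast muscle. It had 10.2, 8.07, 8.59, 5.83 and 5.21 CPM in the muscle-rich libraries, 4.16, 4.90 and 3.83 CPM in the 3 left out, and 4.22, 2.94, 2.83, 2.91 and 2.55 CPM in the muscle-poor ones. The log2 difference was 1.32 ± 0.21 (SE; edgeR quasi-likelihood, Benjamini-Hochberg adjusted p = 0.0121), and the library with least muscle kept 33.7% of the muscle-rich mean. Because muscle transcript sorted the libraries, this p is no independent test for a gene also made in fast muscle. Leaving out iFAXLKO replicate 5 or WT replicate 5 ended the call, with adjusted p up to 0.0671 in edgeR and differences of 1.15 and 1.32.

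No adipocyte gene and no nuclear gene of the respiratory chain was called. Over all genes edgeR called 1.03% higher and 0.00756% lower, so 0 calls in lists of this length do not set these genes apart. Of 29 adipocyte genes 0 were called by edgeR (0 at an unadjusted p under 0.05, and 0 by the slope over 13 libraries). Their median log2 difference was 0.03, and 20 intervals stayed within 1.5-fold, a smaller share than the 76.8% of all genes. Pparg, the master regulator of fat cells, had 169 to 221 CPM against 150 to 228 CPM. Acly, of fatty acid synthesis, was the widest, with 1382 to 2242 CPM against 466 to 3063 CPM. All 45 nuclear genes of the respiratory chain lay above 0, by 0.00 to 0.21 with a median of 0.13. Of these, 0 were called by edgeR (0 at an unadjusted p under 0.05) and 43 of the intervals stayed within 1.5-fold. Their summed level was 65743 CPM in WT replicate 2, against 42821 to 48386 CPM in the other muscle-rich libraries and 41205 to 48490 CPM in the muscle-poor ones. Genes that rise together in 1 library are not separate observations. Genes of the mitochondrial genome took 20.02 ± 0.991% of counts in the muscle-rich set and 20.2 ± 0.716% in the muscle-poor set (SD, n = 5 each; exact permutation test, 2-sided, p = 0.754, where the smallest p possible is 0.00794). Axl, the gene targeted in the study, had 23.5 to 44.0 CPM over all 13 libraries and differed by 0.03 (95% interval -0.28 to 0.34).

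Outside the lists 87 genes were called higher, in a comparison that muscle transcript had sorted. Ankrd23, an ankyrin repeat protein of the muscle titin filament, had 91.3, 60.2, 73.2, 61.7 and 45.8 CPM in the muscle-rich libraries and 24.2, 22.3, 20.2, 16.3 and 17.3 CPM in the muscle-poor ones (GRCm38 chromosome 1, 36530188 to 36536883, minus strand). Gm42417 spans the same stretch on the same strand (36530193 to 36539429) and had nearly the same values, 45.2 to 88.3 CPM against 17.1 to 24.1 CPM, and the counts of the pair cannot be told apart. The log2 differences of the pair were 1.75 ± 0.19 and 1.70 ± 0.17 (SE; edgeR quasi-likelihood, Benjamini-Hochberg adjusted p = 0.00272 for each). Because muscle transcript sorted the libraries, these p-values are no independent test for a muscle gene, and they repeat each other. Camk2a, a calcium-dependent kinase, had 3.41 to 9.36 CPM against 0.422 to 1.24 CPM, and Slc38a4, an amino acid transporter, 1.03 to 2.77 CPM against 0.120 to 0.335 CPM. Slc38a4 was under 1 CPM in every muscle-poor library, so that it passed the filter only through the muscle-rich set and had to be higher there. The log2 difference of Camk2a was 3.13.

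Several of these 11 had a clear level in tissue with almost no muscle transcript. Fhl1, a LIM protein of muscle, had 165 to 293 CPM against 71.0 to 110 CPM. Sh3bgr had 8.73 to 16.1 CPM against 3.26 to 4.24 CPM. Rtn2, Sbk2 and Ddit4l had log2 differences of 2.03, 1.16 and 2.80. Rbfox1, at 1.36 to 4.94 CPM against 0.253 to 0.602 CPM, and Ppp1r14c, at 1.03 to 2.10 CPM against 0.211 to 0.346 CPM, passed the filter only through the muscle-rich set, as Slc38a4 did. The ranges of the sets did not overlap for any of the 11, which the naming rule required. The lowest library kept between 6.13% (Slc38a4, on 3 counts) and 44.1% of the muscle-rich mean over the 11. They were named for small p and sets without overlap, so a low spread in the muscle-poor set follows from that choice.

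Heyl, a repressor downstream of Notch, was the lone gene called lower in this fit, where other fits called 0 to 14 genes lower. It had 21.9, 20.6, 23.1, 20.6 and 18.1 CPM in the muscle-rich libraries, 30.4, 31.2 and 26.4 CPM in the 3 left out and 30.7, 30.8, 32.8, 28.9 and 30.0 CPM in the muscle-poor ones. The sets did not overlap, and the 3 libraries left out stood above the muscle-rich set too. The log2 difference was -0.56 ± 0.09 (SE; edgeR quasi-likelihood, Benjamini-Hochberg adjusted p = 0.0105). The call was lost without iFAXLKO replicate 1 (edgeR adjusted p = 0.0536) and on the slope over 13 libraries, where the difference came to -0.34.

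Genes of other cell types were compared for tissue that could come with muscle. Over all genes edgeR called 1.03% higher and 0.00756% lower between the sets, so 0 calls in lists this short say little about these cell types. Of 5 tested genes of tendon and fascia edgeR called 0 between the sets (1 at an unadjusted p under 0.05), but the slope over 13 libraries called Cilp higher (edgeR, Benjamini-Hochberg adjusted p = 0.0160). Cilp, a cartilage protein, was the lone one without overlap, at 1.54 to 2.33 CPM against 0.120 to 1.43 CPM, beside 1.86% of all genes higher without overlap. Tnmd and Scx, which define tendon (summed level of the list 24.7 to 43.0 against 23.1 to 50.6 CPM), stayed at or under 0.130 and 0.524 CPM. None of the 10 tested endothelial, 11 smooth muscle and pericyte, 10 Schwann cell and nerve, 10 macrophage or 14 fibroblast genes was called by edgeR (0 at an unadjusted p under 0.05, and 0 by the slope), with median log2 differences of -0.16, -0.17, -0.17, 0.00 and 0.08. The summed level of the smooth muscle list ran from 594 to 850 CPM in the muscle-rich and from 819 to 928 CPM in the muscle-poor set. All 6 erythroid genes tested lay above 0, with a median of 0.32, and 0 were called by edgeR (0 at an unadjusted p under 0.05). The part of these cell types in the results was not tested.

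Library numbers in the labels fell into a lower range of consecutive numbers and an upper range, and 4 of the 5 muscle-rich but 2 of the 5 muscle-poor libraries were in the lower. Within the lower range the mean log2(CPM + 1) of the fast sarcomere list differed by 2.86 and within the upper by 3.98, against 3.16 pooled. That of the brown thermogenic list differed by -0.03, 0.05 and 0.00. The upper range held a single muscle-rich library, so these are values with no test. The difference between the genotypes in the effect of the set was called for 0 genes (edgeR interaction term), with 284 at an unadjusted p under 0.05, in a design with 1 muscle-poor WT library.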

How the data were processed

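The 13 deposited tables hold whole-number counts per Ensembl gene, which the authors made from their reads without normalization. The labels name poly-A RNA and the study's methods rRNA depletion. The submitters' processing notes name bcl2fastq 2.20, fastp 0.20.0, STAR 2.7.4a and GRCm38.p6, whereas the study's methods name another aligner; how genes were counted, and with which strand setting, is not given in the sources used here. Symbols and positions came from GENCODE (GRCm38) for 42347 of 42416 identifiers, and promoters from RefSeq.

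Genes above 1 CPM in 5 or more of the 10 libraries were fitted with edgeR 4.0.16 in R 4.3.3 (TMM factors over all 13 libraries, robust quasi-likelihood, genotype and set as terms, Benjamini-Hochberg adjustment, limit 0.05). Intervals are 95% intervals of that fit, and exact tests used scipy 1.17.1. DESeq2 1.42.0, other scalings, filters, set sizes, covariates and left-out libraries were the alternatives.

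The members and gene lists were chosen with earlier results of these data known. Outside the lists, the 12 protein-coding genes of smallest p in each direction were named, where adjusted p was under 0.05 and the sets did not overlap; 1 gene met this for lower, and 1 of the 12 higher genes is not reported here. In the lists the most abundant members and those given by the study's design were named, with others added for their role. No 2 libraries of a genotype agreed within sampling noise (chi-square per degree of freedom at least 15.3), and nothing in the labels says more of separate animals than a replicate number, so p-values measure the spread between these samples.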

Additional observations from a re-analysis of the deposited data

Results flagged for a closer look

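In each set of 5 libraries the mean log2(CPM + 1) of each gene list and the mitochondrial share of counts were searched for a library standing apart from the other 4, by the gap to the nearest library over the range (limit 0.71). Of 54 searches 3 passed, about the 1 in 20 that chance gives. In the muscle-rich set WT replicate 1 had a lymphocyte score of 2.71, against 0.833 to 0.916 in the others, with 79.6 CPM of Igkc, where the other 4 had 0.599 to 3.00 CPM. In the muscle-poor set iFAXLKO replicate 3 had a lymphocyte score of 1.54, against 0.839 to 0.939. In the same set the muscle metabolism score of iFAXLKO replicate 7, the library with the highest muscle score of the 5, was 6.13, against 5.26 to 5.50.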

How the results depend on the processing

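The count of 137 called genes rose to 238 with DESeq2 (135 shared), to 209 with edgeR's own filter, to 211 with the slope on the score over 13 libraries and to 218 with 4 against 4 libraries. It fell to 65 within the iFAXLKO libraries and to 0 within the WT libraries, where a single muscle-poor library is assumed to vary like the others. Leaving out 1 library gave 65 (without WT replicate 5) to 196 (without iFAXLKO replicate 7); 7 of the 10 left-out libraries moved the count by over 1.5 times, and besides WT replicate 5 these were iFAXLKO replicates 5 (71 genes called), 4 (72), 1 (77) and 3 (80) and WT replicates 2 (79) and 1 (86). The median log2 difference of the fast sarcomere genes moved from 3.78 to 5.09 on the slope, 5.52 with 4 against 4 libraries, 6.64 within WT and 5.17 without iFAXLKO replicate 7, with 3.37 to 5.17 over the left-out libraries. The brown thermogenic median of 0.02 ran from -0.042 (without iFAXLKO replicate 1) to 0.061 over them, and the mitochondrial share was not called in any alternative that has a test. Of 150 genes followed, 48 kept their value and side of the limit throughout; over all genes and alternatives 85 values lost a call, 128 gained one and no called gene changed direction. Genes called lower numbered 1 in the comparison of sets, 9 with DESeq2, 5 without iFAXLKO replicate 3, 14 with the replicate block over 10 libraries and 0 to 2 in every other alternative. For the other counts the cause was not tested.

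Replicate numbers are shared by the genotypes, but deviations of same-numbered libraries correlated at 0.34, 0.40, 0.28, 0.26 and -0.54, over 0.1 in 4 of the 5 pairs but not in all, so the numbers were not taken to pair them; the last pair stood at ranks 1 and 12 of the 13 in muscle score. Of 10 libraries numbered 1 to 5 in the genotypes, 5 correlated best with the library of their own number in the other genotype. With the replicate block 222 genes were called over the 10 libraries, with 1 residual degree of freedom, and 185 on the slope over 13, and the fast sarcomere median came to 7.71 and 4.89. Depth limits the lowest library, where 3 counts are 0.121 CPM.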

Other observations

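Mir675, a microRNA gene that lies inside the noncoding RNA H19, was among the genes called higher and was singled out after its values were seen. Its counts averaged 6.26 CPM in the muscle-rich and 0.499 CPM in the muscle-poor libraries, a log2 difference of 3.85 (edgeR quasi-likelihood, Benjamini-Hochberg adjusted p = 0.0288), and iFAXLKO replicate 8 had 0.120 CPM. With libraries sorted by muscle transcript and the gene picked by its values, this p is no independent test. These are reads over the locus, which cannot be told apart from H19 and are no measure of the mature microRNA.

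Immediate early genes, which respond to handling and stress of tissue, all lay above 0 in the 9 genes tested, with a median log2 difference of 0.27. Between the sets edgeR called 0 of them (2, Atf3 and Fos, at an unadjusted p under 0.05), beside 1.03% of all genes called higher and 0.00756% lower. The slope over 13 libraries called Atf3 higher (edgeR, Benjamini-Hochberg adjusted p = 0.00434). Atf3 had 2.44 to 6.92 CPM in the muscle-rich and 0.917 to 3.88 CPM in the muscle-poor set, and Fos 2.22 to 5.10 CPM against 0.479 to 3.32 CPM, while WT replicate 3, which was in neither set, had the highest Fos of all at 12.9 CPM.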
